A study of Mus musculus with 12 samples.

Results

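The genes examined here encode the enzymes that add methyl groups to cytosine in DNA, the factor that guides them to newly copied DNA, and the enzymes that oxidise the methyl group. They were *Dnmt1*, *Uhrf1*, *Dnmt3a*, *Dnmt3b*, *Dnmt3l*, *Tet1*, *Tet2* and *Tet3*, 8 of the 18193 genes measured. All probesets of the array whose annotation named exactly 1 of these genes were taken, which gave 20 of 45037 probesets. The set was chosen by function and partly by the measured fall of the *Dnmt1* signal into spermatids, so that the differences between spermatids and pachytene cells are given below as a description with no p-value. Tests that involve spermatids are of differences between the strains.

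Expression was measured on 12 Affymetrix arrays of germ cells that had been flow-sorted from testes of males aged 8 to 10 weeks. The males were of the inbred strains PWD/Ph (PWD), derived from wild *M. m. musculus*, or C57BL/6J (B6), mainly of *M. m. domesticus* origin. In each strain 3 populations were collected, namely prepachytene spermatocytes (LP, leptotene to early pachytene), pachytene spermatocytes (RP, mid-late pachytene and diplotene) and spermatids (ST). Each of the 6 groups had 2 arrays. Each population was prepared in duplicate from 2 animals of a strain, and the labels do not say whether a replicate number marks the same animal in different populations, so the p-values measure the spread between these preparations.

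Methylation of cytosine in CpG dinucleotides silences transposons, marks imprinted genes and helps to keep genes off. *Dnmt1* copies the mark onto the new strand after replication, for which *Uhrf1* recognises DNA methylated on one strand, while *Dnmt3a* and *Dnmt3b* methylate unmarked sites and *Dnmt3l*, which has no catalytic activity, assists them. Tet enzymes oxidise methylcytosine, a step towards its removal by base excision repair. In the male germline most methylation is laid down before birth, and the mark then has to be carried through the divisions of spermatogonia and the last replication before meiosis.

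Values are deposited log2 signals, in which a difference of 1 is a doubling. A background level of 5.82 was set as the 95th percentile of 50 probesets of 35 genes typical of other organs. *Pomc*, one of those genes, reached a mean of 9.00 here, and without it the level was 4.80. By the higher level, 6 of the 8 genes had a group with a mean above background and 12 of the 20 probesets did. *Tet2* and *Tet3* did not, with values from 1.99 to 2.92 over the 2 *Tet2* probesets and from 2.24 to 3.42 for the *Tet3* probeset. Signals of different probesets depend on their probes, so levels are compared between groups for one probeset and never between genes. Where a gene is counted once, its probeset with the highest mean stands for it.

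The arrays of a group correlated with r from 0.987 in PWD prepachytene cells to 0.996 in B6 pachytene cells. Marker lists followed the sort in part. All 15 measured prepachytene genes were lower in pachytene than in prepachytene cells, and all 15 spermatid genes were higher in spermatids than in pachytene cells. Of 12 pachytene genes 9 were higher in pachytene than in prepachytene cells and 0 lower. Against pachytene cells, 3 of those 12 were lower in spermatids, 3 higher and 6 not called. Of the 15 spermatid genes 10 were lower in pachytene than in prepachytene cells and 3 higher. The prepachytene arrays also carried somatic and earlier germ cell markers, with 8 of 12 Sertoli cell genes above background in either strain, and 6 of 13 spermatogonial genes in B6 and 8 in PWD. The summed Sertoli signal was 14.65 to 15.50 on the 4 prepachytene arrays and 9.08 to 11.56 on the other 8. The summed spermatogonial signal was 14.38 to 14.96 on prepachytene, 12.05 to 12.93 on pachytene and 8.75 to 9.42 on spermatid arrays. Spermatid genes were above background in prepachytene cells as well, 14 of 15 in B6 and 15 in PWD, and all 15 were in pachytene cells. Their summed signal was 15.90 to 16.86 on prepachytene, 14.47 to 15.38 on pachytene and 17.40 to 18.11 on spermatid arrays. Of the 4 Leydig cell genes none was above background on prepachytene or pachytene arrays. In such bulk samples, fewer cells of a type and less RNA per cell cannot be told apart. The part of these markers in the changes between prepachytene and pachytene cells given below was not tested.

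**Figure D1:**
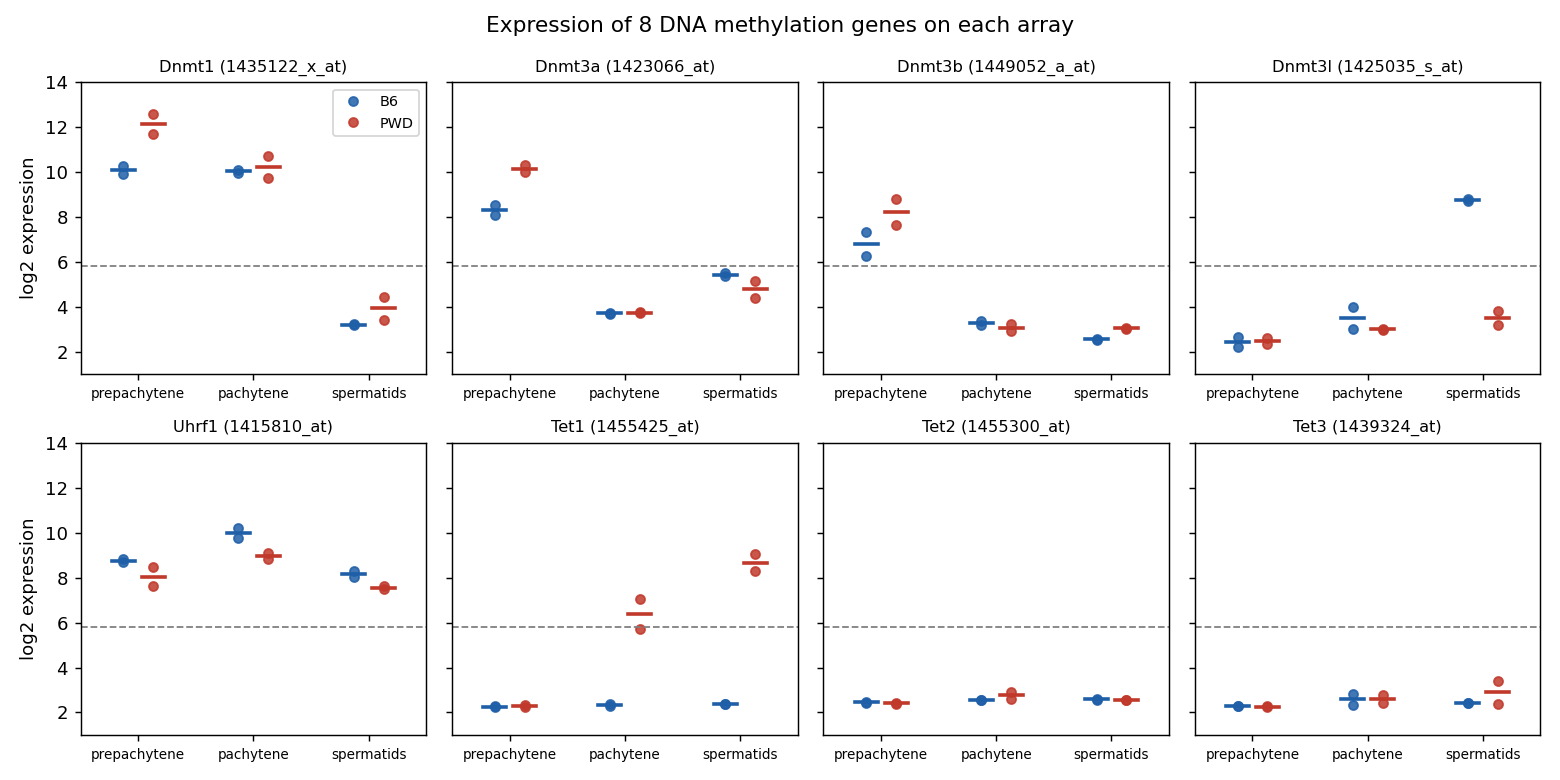
Log2 expression of the 8 genes, each by its probeset with the highest mean, on every array. Points are arrays (2 for each strain and population, B6 blue, PWD red), short bars are group means, and background (5.82) is drawn as a dashed line. *Dnmt1* is low in spermatids of both strains, *Dnmt3a* and *Dnmt3b* are highest in prepachytene cells, and *Dnmt3l* and *Tet1* stand above background in 1 strain.

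The 2 members that differed most between the strains, *Dnmt3l* and *Tet1*, both lie on chromosome 10. The reference sequence in front of each gene is shown for its CpG content. The printed stretches end before the annotated start of transcription of their window, and which start gave the array signal was not tested. RefSeq (GRCm38.p6) held 15 promoter windows for the 8 genes, each of 300 bases from 250 before to 50 after an annotated start. The *Dnmt3l* stretch is the part before the gene at chr10:78042037-78042286 on the plus strand, and the *Tet1* stretch is the part of its window outside the gene at chr10:62887470-62887574 on the minus strand. Capitals mark each CG, which reads the same on both strands.
Dnmt3l: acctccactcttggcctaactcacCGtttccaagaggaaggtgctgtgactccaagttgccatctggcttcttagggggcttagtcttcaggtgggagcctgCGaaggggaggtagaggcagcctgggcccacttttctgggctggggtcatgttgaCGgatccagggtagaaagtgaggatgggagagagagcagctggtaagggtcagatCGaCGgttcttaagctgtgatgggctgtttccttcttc
Tet1: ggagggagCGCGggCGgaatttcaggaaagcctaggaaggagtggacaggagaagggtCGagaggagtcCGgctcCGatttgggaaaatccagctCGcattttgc
The *Dnmt3l* stretch held 5 CG in 250 bases and the *Tet1* stretch 7 CG in 105 bases. Over whole windows, the 3 *Dnmt3l* starts had 6, 4 and 3 CG and the *Tet1* start 17, against a median of 7 over 32851 windows of the mouse genome. As many CG or more were held by 56.4% of all windows for the first *Dnmt3l* start and by 31.4% for *Tet1*. The window of *Tet2* held 57, which 0.152% of all windows reached, and that of *Dnmt3b* held 30. These sequences are of the reference genome, and the PWD sequence was not analysed here.

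*Dnmt1*, the maintenance methyltransferase, was measured by 3 probesets and gave a strong signal in both spermatocyte populations. On the probeset 1435122_x_at the B6 prepachytene arrays read 9.94 and 10.26 and the PWD prepachytene arrays 11.71 and 12.58. In pachytene cells the values were 9.97 and 10.11 in B6 and 9.74 and 10.70 in PWD. The spermatid arrays read 3.24 and 3.18 in B6 and 4.44 and 3.42 in PWD. The PWD prepachytene arrays were thus the highest, B6 prepachytene and the pachytene arrays of both strains overlapped, and all 4 spermatid arrays lay below background.

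The difference between spermatids and pachytene cells was −6.83 in B6 and −6.29 in PWD. Since the spermatid side was below background, the signal was at least 18.6-fold lower in B6 spermatids and at least 21.2-fold lower in PWD spermatids, taking the background level for the low side. The other probesets, 1422946_a_at and 1447877_x_at, gave −4.19 and −5.58 over both strains. On each of the 3 probesets no spermatid array overlapped a pachytene array, which is a description, since this fall was used in choosing *Dnmt1*. By the threshold used for the other comparisons, 5 of the 8 genes lay past it here, beside 42.0% of all genes, and nothing is read from this count because the contrast was used in the choice of *Dnmt1*.

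Between prepachytene and pachytene cells, *Dnmt1* fell in PWD by 1.92 (SE 0.44, adjusted p = 0.0064 by limma), with no overlap of the arrays. The other probesets changed in PWD by −1.49 (adjusted p = 0.0139) and −1.33 (adjusted p = 0.0173). In B6 the 3 differences were −0.06, 0.16 and −0.01, with 95% intervals that together ran from −1.08 to 1.11. The test of the difference between the strains missed the threshold, at −1.86 for 1435122_x_at (adjusted p = 0.0973), −1.65 (adjusted p = 0.107) and −1.32 (adjusted p = 0.152). Fitted among probesets with a mean above background alone, it passed for 1435122_x_at (adjusted p = 0.0292) and 1422946_a_at (adjusted p = 0.0388). With one array left out it ran from −2.34 to −1.38, from −2.32 to −0.98 and from −1.86 to −0.79.

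Over both strains 1435122_x_at was lower in pachytene cells by −0.99 (SE 0.31, adjusted p = 0.0222), while the other probesets, at −0.66 (adjusted p = 0.071) and −0.67 (adjusted p = 0.057), did not pass. With the replicate number of each strain as a block, 1447877_x_at passed as well (−0.67, adjusted p = 0.0342). The call of 1435122_x_at was lost after a repeated quantile normalization (−0.86, adjusted p = 0.0586). It was also lost without B6 prepachytene replicate 2 (−0.91), PWD prepachytene replicate 2 (−0.77), B6 pachytene replicate 1 (−0.96) or PWD pachytene replicate 1 (−0.75).

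*Dnmt1* was higher in PWD than in B6 prepachytene cells on all 3 probesets, by 2.04 (SE 0.44, 4.12-fold, adjusted p = 0.0146), 1.96 (adjusted p = 0.0126) and 1.74 (adjusted p = 0.0161). Both PWD arrays exceeded both B6 arrays on each. The PWD replicates were themselves apart, at 11.71 and 12.58, or 10.28 and 11.63 on 1422946_a_at. Without PWD prepachytene replicate 2 the first difference was 1.61 (adjusted p = 0.0747), and it missed the threshold also without B6 prepachytene replicate 1 (1.88) or 2 (2.20) and with array weights (adjusted p = 0.0809). In pachytene cells the strains differed by 0.18 (95% interval −0.84 to 1.20) and in spermatids by 0.72 (−0.30 to 1.74), neither past the threshold.

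Other lists differed between the prepachytene arrays of the strains too. The summed signal of spermatid markers was 15.90 and 15.95 in B6 and 16.57 and 16.86 in PWD, and that of Sertoli markers 15.00 and 14.65 in B6 and 15.50 and 15.23 in PWD. The summed spermatogonial signal was 14.89 and 14.96 in B6 and 14.38 and 14.83 in PWD, while the median of the same genes was 5.13 and 5.19 in B6 and 6.29 and 7.26 in PWD. For the 11 measured genes of peritubular, endothelial and blood cells the summed signal was 7.31 and 7.19 in B6 and 8.29 and 10.30 in PWD, highest on PWD prepachytene replicate 2, with 1 gene above background in B6 and 2 in PWD. Their part in the strain differences of *Dnmt1*, *Dnmt3a* and *Dnmt3b* in prepachytene cells was not tested.

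*Uhrf1*, the reader of half-methylated DNA that brings *Dnmt1* to it, had its highest values on 1415810_at in pachytene cells. It read 8.69 and 8.83 in B6 and 8.46 and 7.61 in PWD prepachytene cells, and 10.24 and 9.76 in B6 and 8.85 and 9.12 in PWD pachytene cells. In spermatids the values were 8.31 and 8.05 in B6 and 7.63 and 7.49 in PWD. The pachytene arrays were the highest of each strain, and every array stayed above background.

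From prepachytene to pachytene cells *Uhrf1* rose by 1.09 over both strains (SE 0.20, adjusted p = 0.00217), with 1.24 in B6 (adjusted p = 0.00953) and 0.94 in PWD (adjusted p = 0.0221). The probeset 1415811_at rose by 2.11 (SE 0.20, adjusted p = 3.95e-05). Its arrays read 5.95 to 6.91 in prepachytene and 8.09 to 8.60 in pachytene cells. The probesets parted in spermatids, where 1415810_at was lower than in pachytene cells (−1.62) and 1415811_at read 8.13 to 9.23 (0.25).

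The strain difference of *Uhrf1* in pachytene cells was −1.01 on 1415810_at (SE 0.29, adjusted p = 0.0591) and 0.31 on 1415811_at (adjusted p = 0.503). The former passed after centring of the arrays (−1.33, adjusted p = 0.0128) and after a repeated quantile normalization (−1.36, adjusted p = 0.0375). It also passed among probesets with a mean above background (−1.01, adjusted p = 0.0151) and with array weights (adjusted p = 0.0218). In spermatids the probesets had opposite signs as well (−0.63 and 0.92), and neither passed. In prepachytene cells the differences were −0.72 on 1415810_at (adjusted p = 0.143) and 0.28 on 1415811_at (adjusted p = 0.635). That of 1415810_at passed after centring (−0.97, adjusted p = 0.0376). The *Uhrf1* strain difference thus depended on the probeset.

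The de novo methyltransferases were at their highest in prepachytene cells. *Dnmt3a* on 1423066_at read 8.07 and 8.53 in B6 and 10.02 and 10.30 in PWD prepachytene cells. All 4 pachytene arrays lay between 3.70 and 3.75, and the spermatid arrays read 5.50 and 5.37 in B6 and 4.40 and 5.17 in PWD. Both PWD prepachytene arrays exceeded both B6 arrays, and no array of the other populations reached background.

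*Dnmt3a* fell into pachytene by 4.60 in B6 (SE 0.27, adjusted p = 3.39e-06) and by 6.42 in PWD (SE 0.27, adjusted p = 6.84e-07). Against the background level this was at least 5.59-fold in B6 and at least 20.3-fold in PWD. The other 4 probesets read 4.15 to 6.70 in prepachytene, 2.03 to 2.86 in pachytene and 2.04 to 2.87 in spermatids. Their B6 prepachytene means, from 4.39 to 5.64, were below background, and 1460324_at and 1423065_at had no group above it. Every one of the 5 passed the threshold over both strains, in a comparison that called 72.2% of all genes, 28.4% as lower. From pachytene cells to spermatids 1423066_at differed by 1.38, with both sides below background, whereas 1423063_at and 1423064_at differed by 0.12 and 0.01.

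*Dnmt3a* was higher in PWD than in B6 prepachytene cells by 1.86 on 1423066_at (SE 0.27, 3.63-fold, adjusted p = 0.00221) and by 1.92 on 1423064_at (adjusted p = 0.00012). The B6 arrays of 1423064_at, at 4.64 and 4.15, were below background, so that the signal there was at least 1.41-fold higher in PWD. The other 3 probesets differed by less, 1423063_at by 0.49 (95% interval −0.26 to 1.24), and did not pass. The fall into pachytene was steeper in PWD by 1.82 on 1423066_at (difference −1.82, SE 0.38, adjusted p = 0.02) and differed by −1.87 on 1423064_at (adjusted p = 0.00148). On 1423064_at the B6 means of both populations (4.39 and 2.79) lay below background, so the size of this difference has no measured B6 side. For 1423066_at this test missed the threshold without B6 prepachytene replicate 1 (−1.59), B6 pachytene replicate 1 (−1.83) or 2 (−1.81), or PWD pachytene replicate 2 (−1.83). With pachytene values all near the bottom of the scale in both strains, the size of this difference rests on the prepachytene arrays.

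*Dnmt3b* on 1449052_a_at read 7.33 and 6.26 in B6 and 7.66 and 8.81 in PWD prepachytene cells. Pachytene arrays read 2.91 to 3.34 and spermatid arrays 2.53 to 3.07. The prepachytene arrays of both strains stood apart from all others. *Dnmt3b* fell into pachytene by 3.52 in B6 (SE 0.42, adjusted p = 0.000217) and by 5.17 in PWD (SE 0.42, adjusted p = 2.26e-05), at least 1.96-fold and at least 5.32-fold against background. On 1418351_a_at, where B6 prepachytene arrays read 5.46 and 5.10 and those of PWD 7.30 and 9.22, the difference was −3.06 in B6 and −5.68 in PWD.

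Between the strains *Dnmt3b* was higher in PWD prepachytene cells by 2.98 on 1418351_a_at (SE 0.53, adjusted p = 0.00593, at least 5.43-fold against background). With one array left out this difference ran from 2.02 to 3.95, lowest without PWD prepachytene replicate 2, and with only the prepachytene arrays fitted it missed the threshold (adjusted p = 0.0698). On 1449052_a_at the difference was 1.44 (95% interval 0.46 to 2.42, adjusted p = 0.0515), which became 2.01 (adjusted p = 0.0118) without PWD prepachytene replicate 1 and 1.97 (adjusted p = 0.0254) without B6 prepachytene replicate 1. It became 0.86 (adjusted p = 0.219) without PWD prepachytene replicate 2 and 0.91 (adjusted p = 0.264) without B6 prepachytene replicate 2. PWD exceeded B6 on every prepachytene array of both probesets. In pachytene cells and spermatids the strains differed by −0.21 to 0.50 with all arrays below background.

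**Figure D2:**
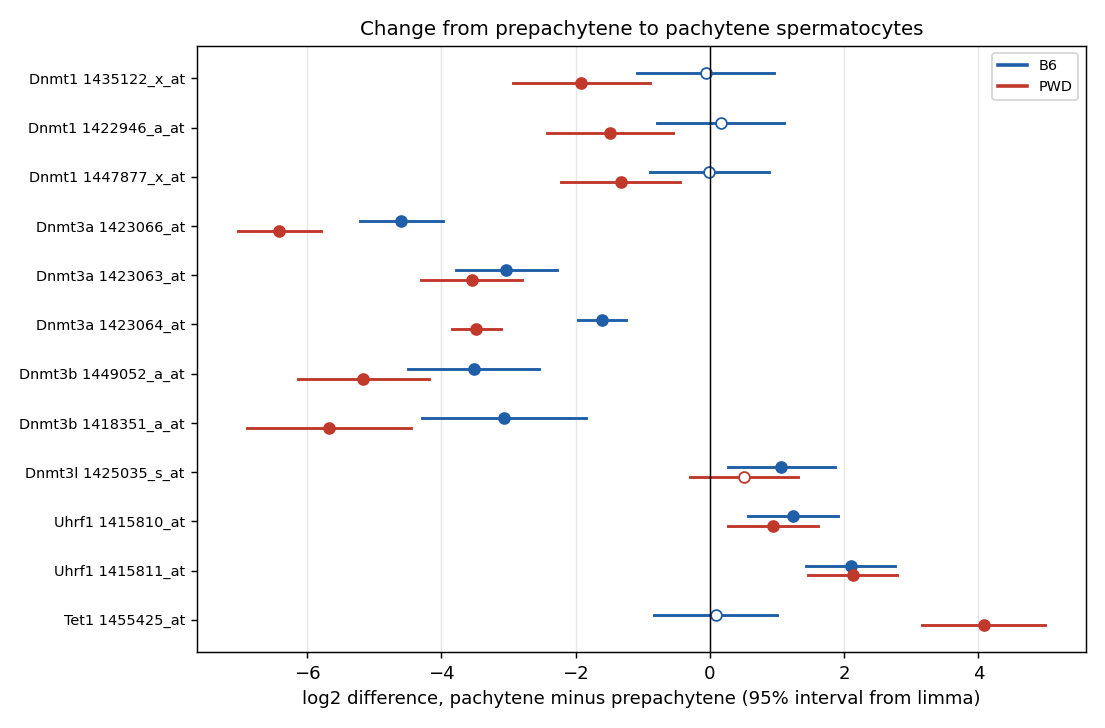
Log2 difference between pachytene and prepachytene spermatocytes in B6 (blue) and PWD (red) for the 12 probesets with a group above background. Circles are limma estimates with 95% intervals, filled where the adjusted p was under 0.05. *Dnmt3a* and *Dnmt3b* lie left of 0 in both strains, *Uhrf1* lies right of 0 in both, and *Dnmt1* and *Tet1* differ from 0 in PWD.

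Counted once per gene, 3 of the 8 genes were lower in pachytene than in prepachytene cells over both strains (*Dnmt1*, *Dnmt3a*, *Dnmt3b*) and 4 were higher (*Uhrf1*, *Dnmt3l*, *Tet1*, *Tet2*). The same comparison called 72.2% of all genes, 28.4% as lower and 43.7% as higher, so a share of 7 in 8 is not a result about these genes. Of the lower ones, *Dnmt1* passed in PWD alone, at −1.92 beside −0.06 in B6. Of the higher ones, *Dnmt3l* (0.79), *Tet2* (0.22) and *Tet1* (2.08, from PWD alone) had means over both strains below background on both sides. The *Tet1* mean of PWD pachytene cells alone was 6.37, above background. In B6, 4 genes passed (47.3% of all genes did) and in PWD 6 (64.3%). Over the 8 genes the median difference was 0.27, and over all genes it was 0.08.

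*Dnmt3l*, the cofactor of the de novo enzymes, had 1 probeset, and it was above background in a single group. B6 spermatids read 8.81 and 8.72, while PWD spermatids read 3.79 and 3.17. The B6 pachytene arrays were at 2.99 and 4.00 and those of PWD at 3.03 and 2.95, and the prepachytene arrays read 2.20 to 2.66 in either strain. The groups other than B6 spermatids lay below 4.80 throughout, the lower of the background levels.

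In spermatids *Dnmt3l* was lower in PWD than in B6 by 5.28 (difference −5.28, SE 0.35, adjusted p = 3.71e-05), at least 7.69-fold against background. This difference is that of a single probeset, and whether a PWD variant lies under its probes was not tested. The differences in the other populations were 0.06 (95% interval −0.74 to 0.85) and −0.50 (−1.30 to 0.30). From pachytene cells to spermatids the B6 signal differed by 5.27 and the PWD signal by 0.49. The test of the difference between these changes gave −4.78 (SE 0.49, adjusted p = 0.00152). It also passed when any 1 of the 12 arrays was left out.

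*Tet1*, an oxidase of methylcytosine, showed the reverse strain pattern on 1 of its 4 probesets. On 1455425_at all B6 arrays lay at 2.23 to 2.39 and the PWD prepachytene arrays at 2.24 and 2.35. PWD pachytene arrays read 7.03 and 5.71, and PWD spermatids 8.31 and 9.04. PWD pachytene replicate 2 was thus just below background and the other 3 of these arrays above it. Of the 15 spermatid markers 11 were also higher on PWD pachytene replicate 1 than on replicate 2, with a median difference of 0.99. The part of this in the *Tet1* values of pachytene cells was not tested. The remaining probesets, 1419897_at, 1419896_at and 1429448_s_at, read 1.88 to 4.18 on all 12 arrays.

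PWD exceeded B6 on 1455425_at by 4.04 in pachytene cells (SE 0.40, adjusted p = 0.000483) and by 6.29 in spermatids (SE 0.40, adjusted p = 3.09e-05). Against background this was at least 1.47-fold in pachytene cells, where 1 of 2 PWD arrays was above it, and at least 7.25-fold in spermatids. In prepachytene cells the strains differed by 0.05 (95% interval −0.87 to 0.97). The change into pachytene was 4.08 in PWD (adjusted p = 6.14e-05) and 0.09 in B6 (adjusted p = 0.897), and the test between them gave 3.99 (SE 0.56, adjusted p = 0.00359). From pachytene cells to spermatids the PWD signal differed by 2.30 and the B6 signal by 0.05, and that difference between strains missed the threshold (2.25, adjusted p = 0.074). As 3 of the 4 probesets of the gene stayed below background, the pattern is that of a single probeset.

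**Figure D3:**
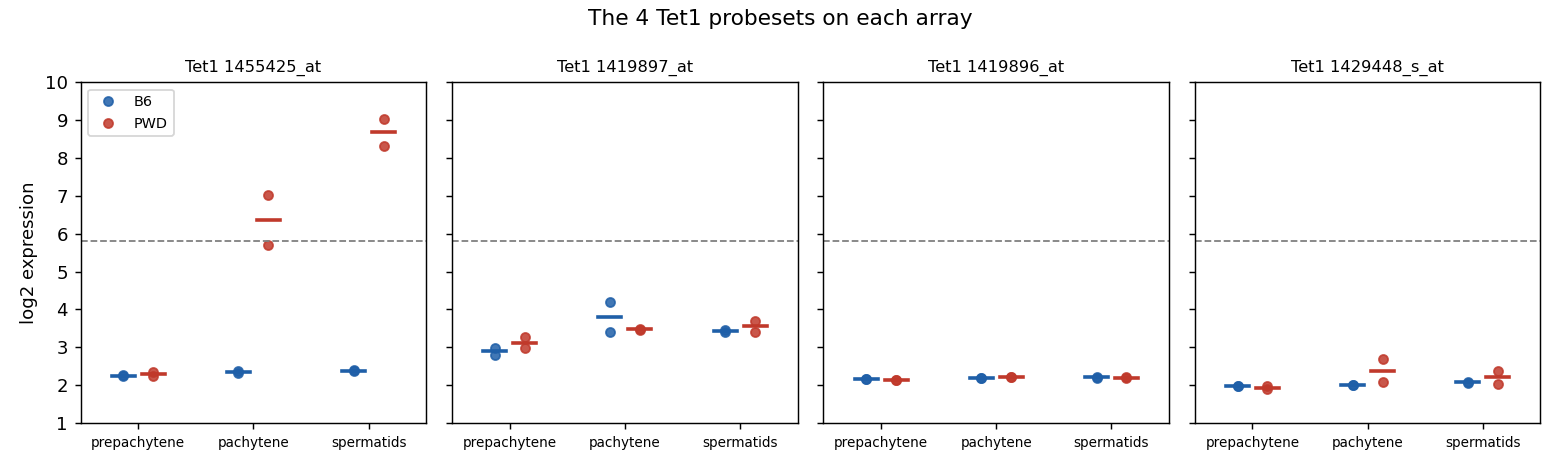
Log2 expression of the 4 *Tet1* probesets on every array. Points are arrays (B6 blue, PWD red), short bars are group means, and background (5.82) is drawn as a dashed line. PWD pachytene and spermatid arrays stand apart on 1455425_at, and the other probesets stay between 1.88 and 4.18.

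*Tet2* and *Tet3*, the other oxidases, gave no group above background. The *Tet2* probeset 1455300_at was higher in pachytene than in prepachytene cells by 0.22 (SE 0.06, adjusted p = 0.015), between means of 2.43 and 2.65. *Tet3* read 2.24 to 2.29 in prepachytene cells and 2.35 to 2.81 in pachytene cells (0.32, adjusted p = 0.214). One *Tet3* array, PWD spermatid replicate 2, read 3.42 beside 2.37 in its replicate. A low array signal does not show that the RNA was absent.

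Between the strains 2 of the 8 genes passed in prepachytene cells, both higher in PWD (*Dnmt1* and *Dnmt3a*), against 22.5% of all genes, 16.6% as higher and 5.88% as lower. In pachytene cells 1 gene passed (*Tet1*), against 17.2% of all genes. In spermatids 2 passed (*Dnmt3l* lower and *Tet1* higher), against 17.1%. The change into pachytene differed between the strains for 2 genes (*Dnmt3a* and *Tet1*, against 13.6%), and the change into spermatids for 1 (*Dnmt3l*, against 4.66%). Counts of 1 or 2 among 8 genes cannot be set apart from these shares.

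The median signal of probesets above background also differed between the arrays, with PWD above B6 by 0.25 in prepachytene cells, 0.32 in pachytene cells and 0.09 in spermatids, and pachytene below prepachytene cells by −0.18. The strain differences of *Dnmt1*, *Dnmt3a* and *Dnmt3b* in prepachytene cells, at 1.44 to 2.98 on the probesets 1435122_x_at, 1423066_at, 1449052_a_at and 1418351_a_at, are therefore smaller by 0.25 relative to the typical probeset. Centring the arrays on these medians changed no sign among the strain differences that passed.

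**Figure D4:**
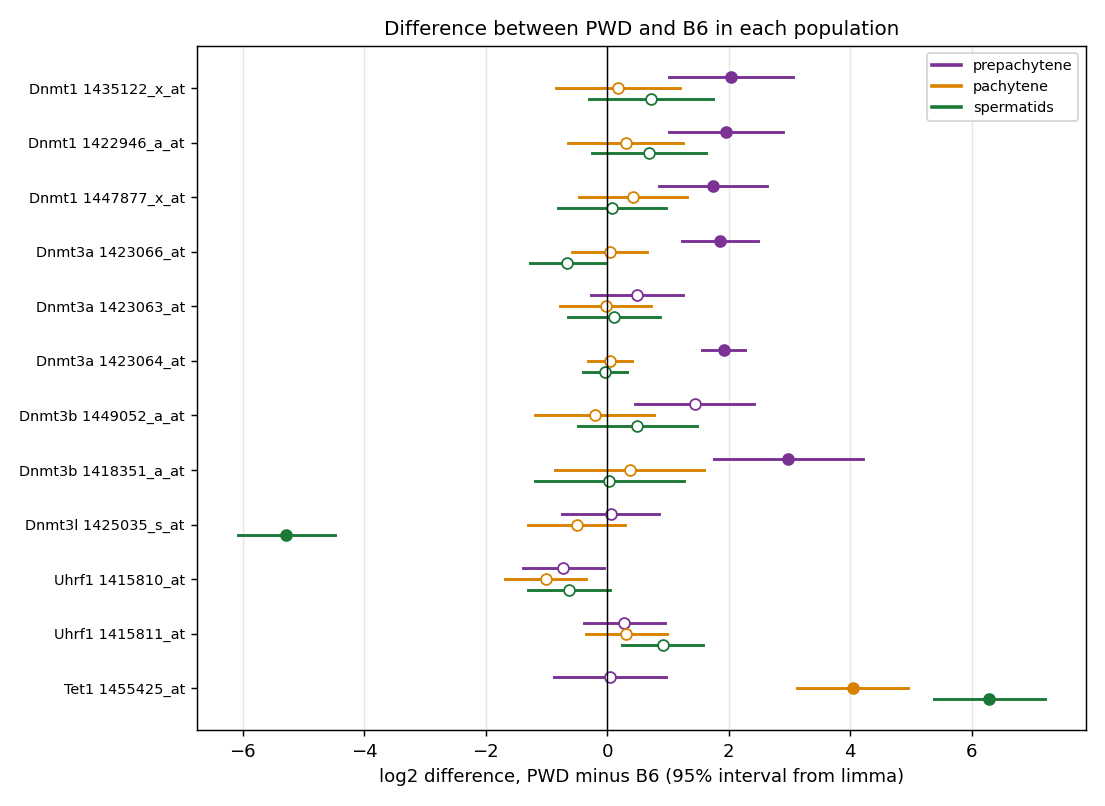
Log2 difference between PWD and B6 in prepachytene (purple), pachytene (orange) and spermatid (green) cells for the 12 probesets with a group above background. Circles are limma estimates with 95% intervals, filled where the adjusted p was under 0.05. Differences of *Dnmt1*, *Dnmt3a* and *Dnmt3b* stand out in prepachytene cells, that of *Dnmt3l* in spermatids, and those of *Tet1* in pachytene cells and spermatids.

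Other genes of the pathway were examined through 4 lists. They were of partners, recruiters and relatives of the methyltransferases, and of base excision repair with the Gadd45 factors linked to demethylation. Further lists were of the families of proteins that read methylated CpG (readers), not each of which need bind it, and of the S-adenosylmethionine (SAM) cycle. That cycle makes SAM, the methyl donor, and its list included related genes. The lists were chosen with earlier results of these data known, so their counts are a description. Of 13 measured partners 11 were lower in pachytene than in prepachytene cells and 2 higher, against 28.4% and 43.7% of all genes. Their median was −1.22 beside 0.08 for all genes. After a repeated quantile normalization 10 were lower and 0 higher. *Trdmt1*, a Dnmt-family enzyme that methylates transfer RNA, fell by 5.34 (SE 0.15), and *Hells*, a chromatin remodeller needed for normal DNA methylation, by 3.78 (SE 0.14). *Nsd1*, a histone H3 methyltransferase, fell by 3.05 and *Setdb1*, which methylates histone H3 at silenced transposons, by 2.31. The 2 higher members, *Zfp57* and *Dppa3*, moved by 0.10 and 0.18 below background and are named here after their values were seen.

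Among 11 repair and Gadd45 genes 5 were lower and 2 higher, with a median of −0.26. *Gadd45b* fell by 6.39 (SE 0.20) and *Smug1*, a uracil glycosylase, by 3.08, though its prepachytene means of 5.42 and 5.07 were below background. *Xrcc1*, the scaffold of single-strand break repair, rose by 1.15. Of 6 readers 4 were lower and 1 higher, with a median of −1.99. *Zbtb33* (Kaiso) fell by 4.93, *Zbtb38* by 2.90 and *Mbd2* by 2.46, while *Mbd3*, a subunit of the NuRD complex, rose by 1.13. Of 8 genes of the SAM cycle 5 were lower and 2 higher, with a median of −1.67. *Mtrr*, which keeps methionine synthase active, fell by 5.18, *Mat2b*, a regulatory subunit of SAM synthetase, by 2.95, and *Mtr*, methionine synthase itself, by 2.70, whereas *Ahcyl2* rose by 2.15. Pachytene means were below background in both strains for *Nsd1*, *Gadd45b*, *Smug1*, *Zbtb33*, *Zbtb38*, *Mtrr* and *Mat2b*, and in 1 strain for *Trdmt1* and *Mtr*, so their falls are differences of signals and not measured folds. The marker differences between prepachytene and pachytene arrays stand beside these lists as well, and their part was not tested.

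**Figure D5:**
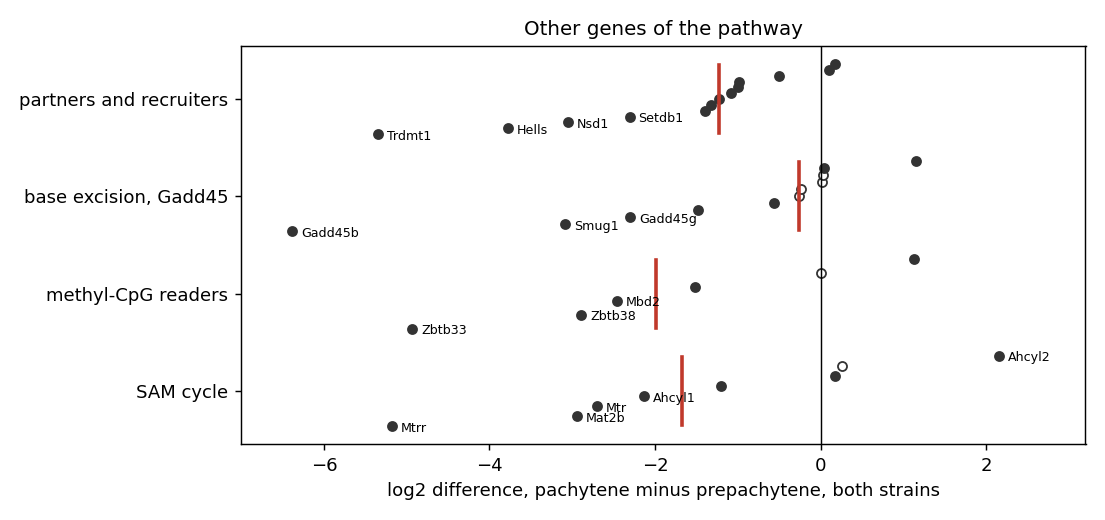
Log2 difference between pachytene and prepachytene cells over both strains for the genes of the 4 lists. Each point is a gene, filled where the adjusted p was under 0.05, with names for differences over 2, and red bars are list medians, at −1.22, −0.26, −1.99 and −1.67 from top to bottom.

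Strain differences of these lists were fewer. In prepachytene cells 5 of 13 partners and 5 of 11 repair genes were higher in PWD and 0 lower, against 16.6% and 5.88% of all genes. Of the 6 readers 1 was higher and 0 lower, and of the 8 genes of the SAM cycle 1 was higher and 2 lower. With the arrays centred, 4 partners were higher and 1 lower, and 5 repair genes were higher and 2 lower. *Morc1*, needed for silencing of transposons in male germ cells, was higher in PWD in each population, by 1.88 (SE 0.25, adjusted p = 0.0016), 2.88 (adjusted p = 0.00026) and 2.75 (adjusted p = 0.00025), the B6 spermatid mean of 5.61 being below background. *Gadd45b* and *Gadd45g* were higher in PWD prepachytene cells, by 2.69 (adjusted p = 0.00044) and 3.04 (adjusted p = 0.0002). For *Gadd45g* the B6 mean of 3.33 was below background and the PWD mean of 6.37 above it, so the size of its difference is not set.

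In pachytene cells 6 partners were higher in PWD and 1 lower, and in spermatids 4 and 1, against 12.1% higher and 5.05% lower and against 9.56% higher and 7.54% lower of all genes. In pachytene cells the partners were 3 higher and 1 lower after a repeated quantile normalization, and 4 higher and 2 lower with the arrays centred. *Uhrf2*, the paralogue of *Uhrf1*, was higher in PWD by 1.53 in pachytene cells and 1.90 in spermatids, and *Hells* by 1.25 and 1.21. *Pcna*, the replication clamp that binds *Dnmt1*, was lower in PWD by 0.95 in pachytene cells (difference −0.95) and by 2.02 in spermatids (difference −2.02, adjusted p = 0.00029). *Mbd1*, a methyl-CpG binding repressor, was higher in PWD spermatids by 2.56 (adjusted p = 0.00058), with means of 4.98 in B6, below background, and 7.54 in PWD.

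The genes whose signal followed each member most closely over the 12 arrays were sought among 8304 genes above background. For *Dnmt1* they were *Krt10*, *Usp24*, *Pygo2*, *Nsmce4a* and *Kif2c*, with Pearson's r from 0.984 to 0.988. *Dnmt3a* was followed most closely by *Enah* (0.992), *Tnrc6a* and *Nup210*, and *Dnmt3b* by *Tceal9* (0.989), *Mbtps1* and *Vps13d*. For *Uhrf1* the closest were *Cyb5a* (0.954), *Parp11* and *Crebrf*, for *Dnmt3l* *Cyp4f39* (0.951), *Scgn* and *Saxo2*, and for *Tet1* *P2rx5* (0.955), *Hebp2* and *Tradd*. The arrays form 6 groups and share their normalization, so these values describe the group pattern only.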

How the data were processed

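RNA of sorted germ cells (15 to 40 ng) was hybridised to Affymetrix mouse arrays. The values the authors deposited are on the log2 scale, 1 for each standard probeset and array, and for them the submitters' processing notes name GCRMA, its version not given in the sources used here, while the methods of the study name RMA with custom probesets. GCRMA models background from probe sequence and normalizes by quantiles, so that RNA content shared by a whole population is levelled out. Probes follow a reference close to B6, and a PWD variant under a probe can lower its signal. This was not analysed here.

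From these values, 64 control probesets were left out. The other 45037 were fitted with limma 3.58.1 in R 4.3.3, with 6 group means, an intensity-dependent variance prior and Benjamini-Hochberg adjustment over all probesets at 0.05. The script was tested on simulated data. Names came from the platform annotation and RefSeq of GRCm38.p6, where 34945 probesets had 1 gene (204 of them not found in RefSeq), 932 several and 9160 none. Tables and plots came from Python 3.11.15 (matplotlib 3.10.9, numpy 2.4.6, pandas 2.3.3). A fold given as "at least" sets the mean of the brighter group against the background level or the dimmer signal, whichever was higher on each array. The number of arrays limits the precision.

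All probesets of the 8 genes were described. Of the 4 pathway lists, those with the largest changes or an explained role were named, at most 4 a list and comparison as a guide, and for each gene above background the 3 most correlated genes (5 for *Dnmt1*). The genes and lists were chosen with earlier results of these data known. Listed genes without a probeset of their own were not analysed here. Alternatives were other normalization, scaling, filters, variance priors, threshold, array weights, blocks by replicate number, fits of the compared groups alone, another probeset for a gene, and leaving out each array. A background level without *Pomc* and a crossed block were chosen after seeing the data.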

Additional observations from a re-analysis of the deposited data

Results flagged for a closer look

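The change into pachytene differed between the strains by a test of the difference itself for 2 probesets of *Dnmt3a*, at −1.87 for 1423064_at (adjusted p = 0.00148) and −1.82 for 1423066_at (adjusted p = 0.02), PWD minus B6 by limma. On 1423064_at the B6 means of both populations were below background. For the *Tet1* probeset 1455425_at the same difference was 3.99 (adjusted p = 0.00359). The change into spermatids differed for *Dnmt3l* 1425035_s_at by −4.78 (adjusted p = 0.00152).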

How the results depend on the processing

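Each array was left out in turn and the other settings were changed one at a time. Of 1860 values of single probesets under these settings, 1751 kept their direction and side of the threshold, 47 moved past it, 30 fell back, 1 moved by more than the replicate spread and 31 reversed their direction. The 31 belonged to 18 of 72 tested differences, all of at most 0.51 in size and with adjusted p of 0.284 or more in either setting. Of 169 counts of genes, 140 stayed within 1.5 times the count reported. Between prepachytene and pachytene cells 7 genes passed, 4 at a threshold of 0.01 and 3 among probesets with a mean above background, with either background level, and 5 to 8 when an array was left out. Between pachytene cells and spermatids, where *Dnmt1* was chosen and the count is a description only, it was 5, 3 above either background level and 5 to 6 with an array left out. Between the strains in prepachytene cells 2 passed, 1 at 0.01, 1 with array weights and 1 to 4 with an array left out, 4 of them without PWD prepachytene replicate 1. In pachytene cells 1 passed, and 2 after repeated quantile normalization, centring or array weights, where *Uhrf1* joined *Tet1*, and 1 to 2 with an array left out. In spermatids 2 passed, 0 above either background level, because *Dnmt3l* and *Tet1* have low means over 12 arrays and were not tested there, and 2 to 3 with an array left out. The change into pachytene differed between the strains for 2 genes, 1 at 0.01 and 1 to 3 with an array left out. The change into spermatids differed for 1 gene, 2 after centring, with array weights or with only the compared groups, 0 above either background level for the same reason, and 1 to 2 with an array left out. Above either background level *Tet1* was not tested in pachytene cells or for the change into pachytene. With that filter *Uhrf1* passed between the strains in pachytene cells, and *Dnmt1* passed for the change into pachytene. Except where a filter left genes out, the cause was not tested.

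Deviations of replicates with the same number correlated from −0.29 to 0.09 between populations of a strain, so the numbers were not taken to pair the arrays. With the replicate number as a block, by number or by strain and number, the counts of genes were 7 between prepachytene and pachytene cells and 5 between pachytene cells and spermatids, as without it, no other count of genes changed, and the *Dnmt1* probeset 1447877_x_at passed between prepachytene and pachytene cells (adjusted p = 0.0326 and 0.0342). Crossing the numbers of PWD pachytene cells, chosen after seeing the data, gave 7 and 5 genes as well.

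The reversed values were as follows. Centring gave strain differences of −0.19 for *Dnmt3l* and −0.20 for *Tet1* 1455425_at in prepachytene cells. In pachytene cells it gave −0.14 and −0.015 for *Dnmt1* 1435122_x_at and 1422946_a_at, −0.28 and −0.27 for *Dnmt3a* 1423066_at and 1423064_at and −0.0065 for *Uhrf1* 1415811_at. In spermatids it gave −0.0091 for *Dnmt1* 1447877_x_at and −0.052 for *Dnmt3b* 1418351_a_at. Between the strains' changes it gave −0.045 for *Uhrf1* 1415811_at into pachytene and 0.15 for *Dnmt3a* 1423064_at into spermatids. Repeated quantile normalization gave −0.21 and −0.025 for the same *Dnmt1* probesets and −0.0082 for *Dnmt3a* 1423064_at in pachytene cells, and for the last 0.0040 in spermatids and 0.012 for the change into spermatids. With an array left out, prepachytene strain differences ran from −0.085 to 1.07 for *Dnmt3a* 1423063_at, −0.18 to 0.29 for *Dnmt3l*, −0.19 to 0.76 for *Uhrf1* 1415811_at and −0.0047 to 0.10 for *Tet1*. They ran from −0.30 to 0.66 for *Dnmt1* 1435122_x_at and −0.13 to 0.088 for *Dnmt3a* 1423063_at in pachytene cells, and from −0.061 to 0.13 for *Dnmt3b* 1418351_a_at in spermatids. Differences between the strains' changes ran from −1.09 to 0.062 for *Dnmt3a* 1423063_at, −0.72 to 0.13 for *Uhrf1* 1415810_at and −0.45 to 0.51 for 1415811_at into pachytene, and from −0.74 to 0.063 for *Dnmt1* 1447877_x_at into spermatids. The cause was not tested.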
